A study of Homo sapiens with 6 samples.

Results

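The libraries compared here are RNase I 0.05/0.05 and RNase T1 1/1, the 2 electroeluted libraries among the 6 of an infrared PAR-CLIP series on IGF2BP3 in HCT116, a human colorectal carcinoma line that in this stock carries a Tet-inducible OsTIR1 transgene with puromycin resistance. PAR-CLIP crosslinks a labelled RNA to the protein that holds it, trims the RNA with RNase, and sequences what stays attached. All cells took up 4-thiouridine at 100 µM for 15 h and were irradiated at 365 nm, and a Proteintech antibody against IGF2BP3, which per the study's methods partly recognises the paralog IGF2BP2, pulled down the endogenous protein. The RNase I library was digested at 0.05 U/µL in the lysate and 0.05 U/µL on the beads, and the RNase T1 library at 1 U/µL in both steps. The remaining 3 IGF2BP3 libraries, of which 2 used RNase I and 1 used RNase T1 at other doses, were extracted from crushed gel, and 1 library used an IgG control. Each enzyme has 1 electroeluted library, so every difference below is a difference between libraries without a replicate check, and enzyme and library cannot be told apart.

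Binding clusters, stretches of genome covered by overlapping crosslinked reads, were assigned to GENCODE release 44 genes by a same-strand exon overlap of at least 1 nt. Their deposited read counts were summed per gene and divided by all cluster reads of the library to give reads per 1000000 cluster reads (RPM). Of 62700 annotated genes, 11727 had a cluster in at least 1 of the libraries and 8076 in both. The comparison covers the 6932 genes with a cluster in both libraries and a mean of at least 10 RPM. The ratio is given as log2 of RNase I over RNase T1, so values above 0 are higher with RNase I. A range after a log2 ratio is its exact 95% interval from the read counts, and it covers counting error only.

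IGF2BP3 is an oncofetal RNA-binding protein with RNA recognition motifs and KH domains that binds many mRNAs, mostly in their 3′UTRs, and is known for influencing their stability and translation. The trimming enzymes differ in what they cut. RNase T1 cuts single-stranded RNA after G and leaves fragments that end in G, whereas RNase I cuts after any nucleotide.

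The ends of the top clusters, the cluster with the most reads of each gene, give a view of the sequences behind the strongest shifts. The sequences are the last 30 nt of the cluster or all of it where it is shorter, from GRCh38, written from 5′ to 3′ on the strand of the gene, with every G in capitals. The first set comes from the RNase T1 library for genes that were higher with RNase T1. It was chosen because these sites hold few G before the last nucleotide.
CLCC1 with RNase T1: tttcaacttcaacattcacatttttactG
PEX13 with RNase T1: ttacattttattatacacattattG
SKAP2 with RNase T1: aatatcattaatataaatttaaacaacatG
H3-3A with RNase T1: tccattcactatacttttctaactGaGttG
The clusters of CLCC1 (chr1:108934517-108934545, minus strand) and PEX13 (chr2:61048944-61048968, plus strand) are printed whole, and the last 30 nt are printed for SKAP2 (chr7:26667308-26667337, minus strand) and H3-3A (chr1:226071889-226071918, plus strand). All 4 lie in annotated 3′UTRs and end in G, and in 3 of them no other G is seen in the printed stretch.

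The second set gives examples from the RNase I library for genes that were higher with RNase I. The lower pair gives the RNase T1 top cluster of the same genes.
RPL13 with RNase I: cactGttGGttGtttGGttaGtGactGatG
TMEM41A with RNase I: GcaaacaGactattaaatatGaatGGaGca
RPL13 with RNase T1: acccttccttcaatGGGcttcttcacccaG
TMEM41A with RNase T1: tatcttttaatttatcttttaattcaaaG
The RPL13 end (chr16:89563224-89563253, plus strand) holds 9 G before its last nucleotide and the TMEM41A end (chr3:185490510-185490539, minus strand) 6, both in the 3′UTR. Over the whole RNase I cluster the G share was 31.3% in RPL13 and 19.1% in TMEM41A. Not all genes with high ratios had such ends, as SUPT5H had 3 G before the last nucleotide. With RNase T1, TMEM41A had a single cluster, of 11 reads, elsewhere in its 3′UTR (chr3:185490255-185490283), and the only G of that cluster is its last nucleotide. In RPL13 the RNase T1 top cluster, of 13 reads (its last 30 nt at chr16:89563840-89563869), lies elsewhere in the 3′UTR as well and holds 3 G before its last nucleotide within the printed stretch.

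The median composition of top clusters differed between the libraries, and within each library between shifted and other genes. In the 6185 genes under 4-fold, the top RNase T1 cluster had a median of 1 G before the last nucleotide within its last 30 nt and a median G share of 9.09% over the whole cluster, and the top RNase I cluster 5 and 17.6%. In the 251 genes at least 4-fold higher with RNase T1, the top RNase T1 cluster had a median of 0 such G and a G share of 6.06%, and the top RNase I cluster 3 and 13.1%. In the 496 genes at least 4-fold higher with RNase I, the top RNase T1 cluster had a median of 3 such G and a G share of 15.1%, and the top RNase I cluster 6 and 21.5%. Over clusters on 3′UTRs as a whole, G made up 19% of the nucleotides under RNase I clusters and 13.3% of those under RNase T1 clusters. The canonical 3′UTRs of the protein-coding genes compared hold 20.7% G. Without the last nucleotide of each cluster the shares were 19% with RNase I and 11.2% with RNase T1.

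Most genes were recovered to a similar degree with both enzymes. Of the 6932 genes, 4384 (63.2%) lay within 2-fold and the median log2 ratio was 0.02, with an interquartile range from -0.65 to 0.82. The 496 genes at least 4-fold higher with RNase I are 7.16% of the genes compared, the 251 at least 4-fold higher with RNase T1 are 3.62%, and 50.4% of all genes were higher with RNase I at any fold. With only clusters of more than 0.5 conversion events per read the counts were 342 and 562. The interval of the ratio lay beyond 2-fold in the same direction for 459 of the 496 and 245 of the 251 genes. These intervals come from the same reads that chose the genes, so they are no separate check of the shifts. The genes just inside the threshold had log2 ratios of 2.00 and -2.01 and those just outside 2.00 and -2.0, so the threshold divides a continuous range that runs from -4.55 to 5.31. The ratio did not follow the mean level (Spearman rho = -0.04 across genes, a description only, as genes share their libraries). A further 361 genes at the same minimum had clusters in 1 of the libraries only, 322 with RNase I and 39 with RNase T1. The caller lists no value below its own minimum, and the smallest cluster held 2 reads in both libraries, so no ratio is given for these genes. Of the 322 genes 166 were protein-coding and 105 processed pseudogenes. Among those with at least 90% of their reads in clusters of their own, those with many reads included the pseudogenes RPS28P7 (299 reads), ENSG00000180211 (273) and TUBAP2 (264) and the mitochondrial serine tRNA gene MT-TS1 (263).

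**Figure D1:**
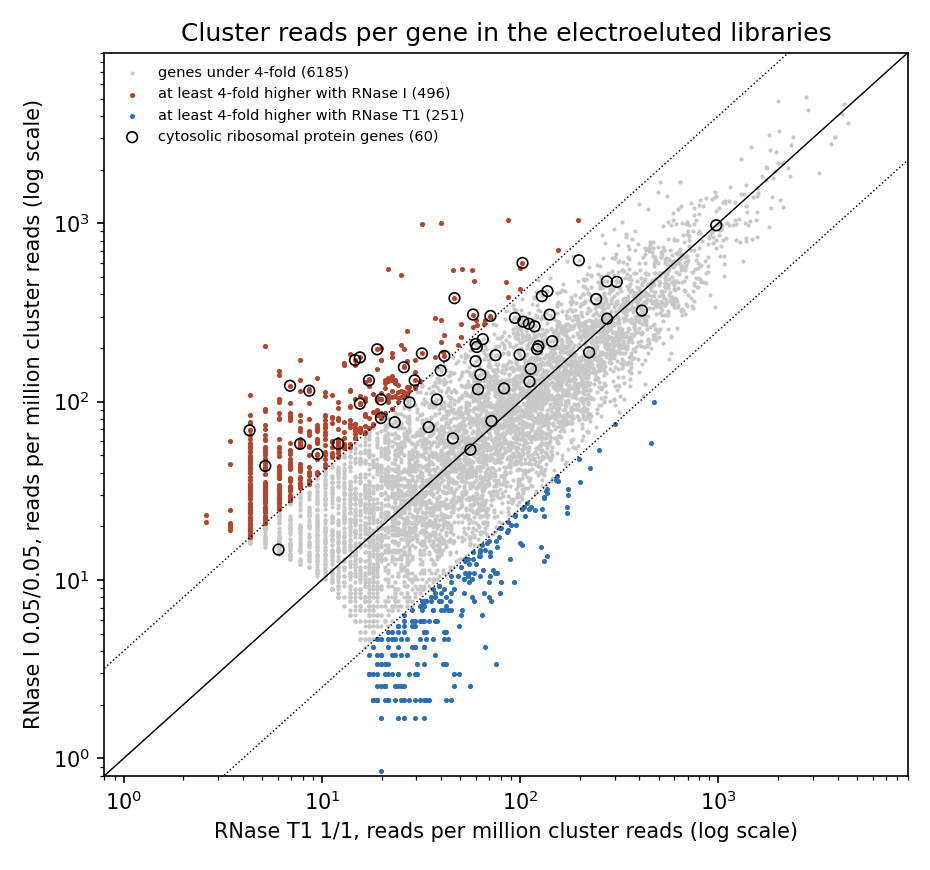
RPM per gene with RNase T1 1/1 (x axis) and RNase I 0.05/0.05 (y axis), both on log scales, for the 6932 genes compared. Each point is a gene, the solid line marks equal values and the dotted lines 4-fold, and 22 of the 60 circled ribosomal protein genes lie above the upper dotted line and none below the lower one.

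Among the 6 genes with the most reads, summed per gene and not per length, 3 had ratios close to equal and 3 were higher with RNase I by the reads of all clusters. KITLG, the ligand of the receptor KIT, had 10952 reads with RNase I and 5004 with RNase T1, or 4636 and 4324 RPM. EREG, the EGF-family growth factor epiregulin, had 3643 and 4514 RPM, and DCBLD2, a transmembrane receptor-like protein, 4104 and 4183. The log2 ratios of these 3 genes lay between -0.31 and 0.10. FAT1, an atypical cadherin, had 5091 RPM with RNase I and 2776 with RNase T1 (log2 ratio 0.88). CDKN1A, the cyclin-dependent kinase inhibitor p21, had 4305 and 2849 (0.60), and PABPC1, the cytoplasmic poly(A)-binding protein, 4872 and 2001 (1.28). None of the 6 reached 4-fold. With only clusters of more than 0.5 conversion events per read, KITLG had 0.84, DCBLD2 0.50, EREG -0.92 and CDKN1A -0.31, while FAT1 had 0.88 and PABPC1 1.04. In the crushed-gel libraries FAT1 had 0.55 and the other ratios lay below 0, with CDKN1A at -0.11, PABPC1 at -0.14, KITLG at -0.43, EREG at -0.62 and DCBLD2 at -0.71. The layout within the gene differed even where the totals did not: RNase I reads of KITLG were called as 17 clusters and RNase T1 reads as 44, and those of EREG as 15 and 38.

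Among the genes highest with RNase I were ribosomal protein genes. RPL13 had 418 reads with RNase I and 18 with RNase T1, or 177 and 15.6 RPM, a log2 ratio of 3.51 (2.83 to 4.28), and RPL32 had 404 and 17 reads (3.54, 2.84 to 4.33). Both encode proteins of the large ribosomal subunit. SUPT5H, a subunit of a transcription elongation factor of RNA polymerase II, had 254 and 12 reads (3.37), 84.6% of them in the coding sequence with RNase I and all of them with RNase T1. TMEM41A, a transmembrane protein gene, had 319 reads in 17 clusters with RNase I and 11 reads in 1 cluster with RNase T1 (3.83, 2.97 to 4.85). Others of the 12 highest ratios belonged to 5 pseudogenes (BZW1P2, ENSG00000218426, RPL26P19, RPL30P4 and RPL10P9) and the lncRNA genes LINC01123 and LINC01106, and 3 of these depended on how a long cluster is assigned, as described with the gene types. The RNase I top clusters of LINC01123 and LINC01106 held 1216 and 1232 reads and end in the same 30 nt. A read of that end fits both places, so these 2 genes are not separate cases.

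At the other end stood genes of varied function. CLCC1, an endoplasmic reticulum chloride channel gene, had 30 reads with RNase I and 153 with RNase T1, or 12.7 and 132 RPM, and was 10.4-fold higher with RNase T1 (log2 ratio -3.38, -4.00 to -2.81). PEX13, a peroxisomal membrane protein of the protein import machinery, had 32 and 159 reads (-3.34), 95% of them in the 3′UTR with RNase T1 but 34.4% with RNase I. ANKRD42, an ankyrin repeat protein gene, had 23 and 108 reads (-3.26). SKAP2, an adaptor of Src-family kinases, had 71 and 203 reads (-2.55), EPM2AIP1, which encodes a partner of laforin, 38 and 116 (-2.64), DNAJC24, a co-chaperone gene, 54 and 152 (-2.52), and C16orf87 84 and 231 (-2.49). These 7 genes had 3′UTRs with G shares from 13.1% to 19%, all below the median of the protein-coding genes compared, 20.2%.

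H3-3A, a gene of the replication-independent histone H3.3, had 61 reads with RNase I and 200 with RNase T1 (-2.74). In the RNase T1 library 192 of its 200 reads lay in 1 cluster, the one printed above. The gene ENSG00000290018 on chromosome 2 (chr2:174720727-174720756 for the last 30 nt) had a cluster with the same 30 nt and 191 reads, and its totals were 56 and 199 reads (-2.86). A read of this sequence fits both places, so these values cannot be assigned to either gene alone. NT5C3A, a pyrimidine nucleotidase gene, had 36 and 147 reads (-3.06), and its pseudogene NT5C3AP1 19 and 81 (-3.12). The RNase T1 top clusters of both were 28 nt long and held 76 and 75 reads, and how their reads were divided was not tested.

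**Figure D2:**
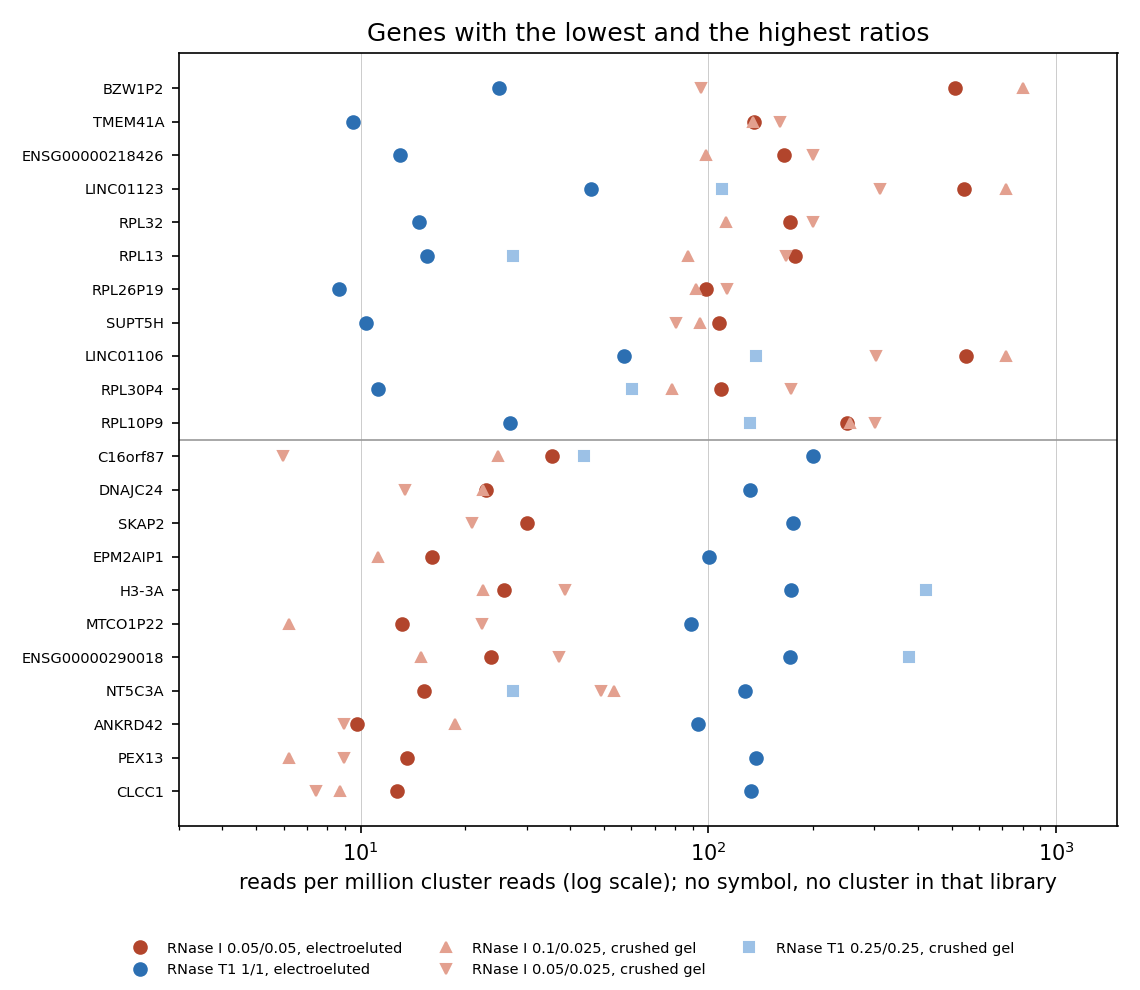
RPM (x axis, log scale) of 11 of the 12 genes with the lowest and 11 of the 12 with the highest ratios at a mean of at least 50 RPM, in the electroeluted pair (circles) and the crushed-gel libraries (triangles and squares). In every row the circles of the electroeluted pair lie more than 4-fold apart, and for H3-3A the crushed-gel RNase T1 library holds 422 RPM against 22.4 and 38.8 in the crushed-gel RNase I libraries.

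Gene groups were described by the counts and medians of their members beside those of all genes. Ribosomal protein genes of the cytosolic ribosome, short and highly expressed mRNAs, had the highest median among the lists of nuclear genes with more than 1 gene compared. Of 79 genes, 60 were compared, 10 had clusters with RNase I only, 6 lay below the minimum and 3 had no cluster. Of the 60, 56 were higher with RNase I, 22 (36.7%) reached 4-fold with RNase I against 7.16% of all genes, and none reached 4-fold with RNase T1. The median log2 ratio was 1.62, with an interquartile range from 0.77 to 2.41. Summed over the list, the RPM were 12816 with RNase I and 5908 with RNase T1. Members included RPL14, with 765 and 476 reads (-0.35), RPL15 (2301 and 1129 reads, 974 and 976 RPM), RPLP0 (1114 and 317, 0.78), RPL39 (898 and 54, 3.03) and RPL3 (163 and 5, 4.00), and the lowest ratio was that of RPL14, which was 0.35 with only clusters of more than 0.5 conversion events per read.

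The position of the reads in these genes differed as well. In the median ribosomal protein gene, 35.5% of the RNase I reads and 13% of the RNase T1 reads lay in clusters on coding sequence that did not reach the 3′UTR. The 33 members with an annotated 3′UTR of up to 300 nt had a median of 1.74 and the 27 with a longer one 1.60. The other 387 genes with a 3′UTR of up to 300 nt had a median of 0.81, of which 67 (17.3%) reached 4-fold with RNase I. Pseudogenes named after a cytosolic ribosomal protein were chosen by name, after the ratios of all pseudogenes were known. They gave 50 of 55 higher with RNase I and a median of 1.68, against 189 of 295 and 0.66 for other processed pseudogenes. Reads of the ribosomal protein genes and of their copies cannot be fully told apart. When every cluster sequence found at more than 1 place in a library was dropped, which leaves reads shared with copies that were clustered differently, 57 genes of the ribosomal protein list had a median of 1.67.

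Several other lists of nuclear genes stood above the median of all genes to a lesser degree. Of 15 glycolytic enzyme genes compared, 13 were higher with RNase I, with a median of 0.93. GAPDH had 1107 and 285 reads (0.93), ENO1 1132 and 142 (1.97), and ALDOA, with 245 and 7 reads (4.10), was the 1 member past 4-fold, although most of its reads lay in clusters that also touch another gene, while ALDOC had 21 and 13 (-0.34). Of 49 nuclear-encoded respiratory chain subunits, 10 (20.4%) reached 4-fold with RNase I and 2 (4.08%) with RNase T1, against 7.16% and 3.62% over all genes. The median of these subunits was 0.59, and it was -0.044 with only clusters of more than 0.5 conversion events per read. ATP5F1B, the beta subunit of ATP synthase, had 1121 and 68 reads (3.01), ATP5MJ, a small subunit of the same enzyme, 445 and 26 (3.07), whereas NDUFB3 and NDUFA5 of complex I had 14 and 33 (-2.27) and 19 and 41 (-2.14). The 22 proteasome subunits had a median of 0.45 with PSMD2 highest (54 and 10 reads, 1.40) and PSMB2 lowest (520 and 511, -1.0) among those with at least 10 reads in each library and at least 90% of them in clusters of their own. The 47 translation factors, chosen by gene symbol, had a median of 0.35. By the same rule the members ran from EIF2AK2 (725 and 647 reads, -0.87) to EIF2S2, the beta subunit of initiation factor eIF2 (420 and 43, 2.26). EIF2AK2 encodes the double-stranded RNA-activated kinase PKR, which entered by its symbol and is not itself such a factor.

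The other lists of nuclear genes with more than 1 gene compared had medians from -0.17 to 0.45, beside 0.02 for all genes. The 104 solute carriers had a median of -0.02, with 6 genes (5.77%) past 4-fold in each direction. Over all genes these shares were 7.16% with RNase I and 3.62% with RNase T1. Among the 104 were the ADP/ATP carrier SLC25A5 (678 and 46 reads, 2.85) and the mitochondrial carrier SLC25A24 (26 and 86, -2.76). The 38 mitochondrial ribosomal proteins had a median of 0.33 and the 13 aminoacyl-tRNA synthetases one of 0.40, with FARSB highest (160 and 19 reads, 2.04). The 76 TMEM genes, the 45 chaperones, the 25 cyclins and cyclin-dependent kinases, the 23 DEAD and DEAH box helicases and the 16 actins, tubulins, cofilins and profilins had medians between 0.01 and 0.09. In this last list ACTB, cytoplasmic beta-actin, was highest (954 and 178 reads, 1.39). The 17 keratin and epithelial adhesion genes had a median of 0.45, with KRT19 at 132 and 10 reads (2.69), KRT8 at 181 and 5 (4.15) and desmocollin DSC2 at 205 and 282 (-1.49). The 8 known IGF2BP substrates compared had a median of 0.13, with HMGA2 at -0.43, CD44 at 0.02, cyclin CCND1 at 0.24 and CCND3 highest (74 and 5 reads, 2.86).

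Further lists below the median of all genes were the 150 ZNF genes of the C2H2 zinc finger class (median -0.16), 30 hnRNP and SR splicing factor genes (-0.17), 27 ubiquitin-conjugating enzymes (-0.17) and 34 RAB GTPases (-0.05). Of the ZNF genes 2 (1.33%) were past 4-fold with RNase I and 4 (2.67%) with RNase T1, against 7.16% and 3.62% over all genes. ZNF426 had 15 reads with RNase I and 58 with RNase T1 (-2.98). HNRNPF, a G-tract-binding splicing factor, had 445 and 665 reads (-1.61) and the SR protein gene SRSF9 293 and 28 (2.36). Of 68 replication-dependent histone genes 1 could be compared, H2BC5, with 84 and 12 reads (1.78). Its RNase I top cluster of 119 nt (chr6:26171013-26171131) lay near the 3′ end of the annotated gene (chr6:26158122-26171349). The canonical 3′UTR has 60 nt, and which transcript of the gene these reads came from was not tested.

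**Figure D3:**
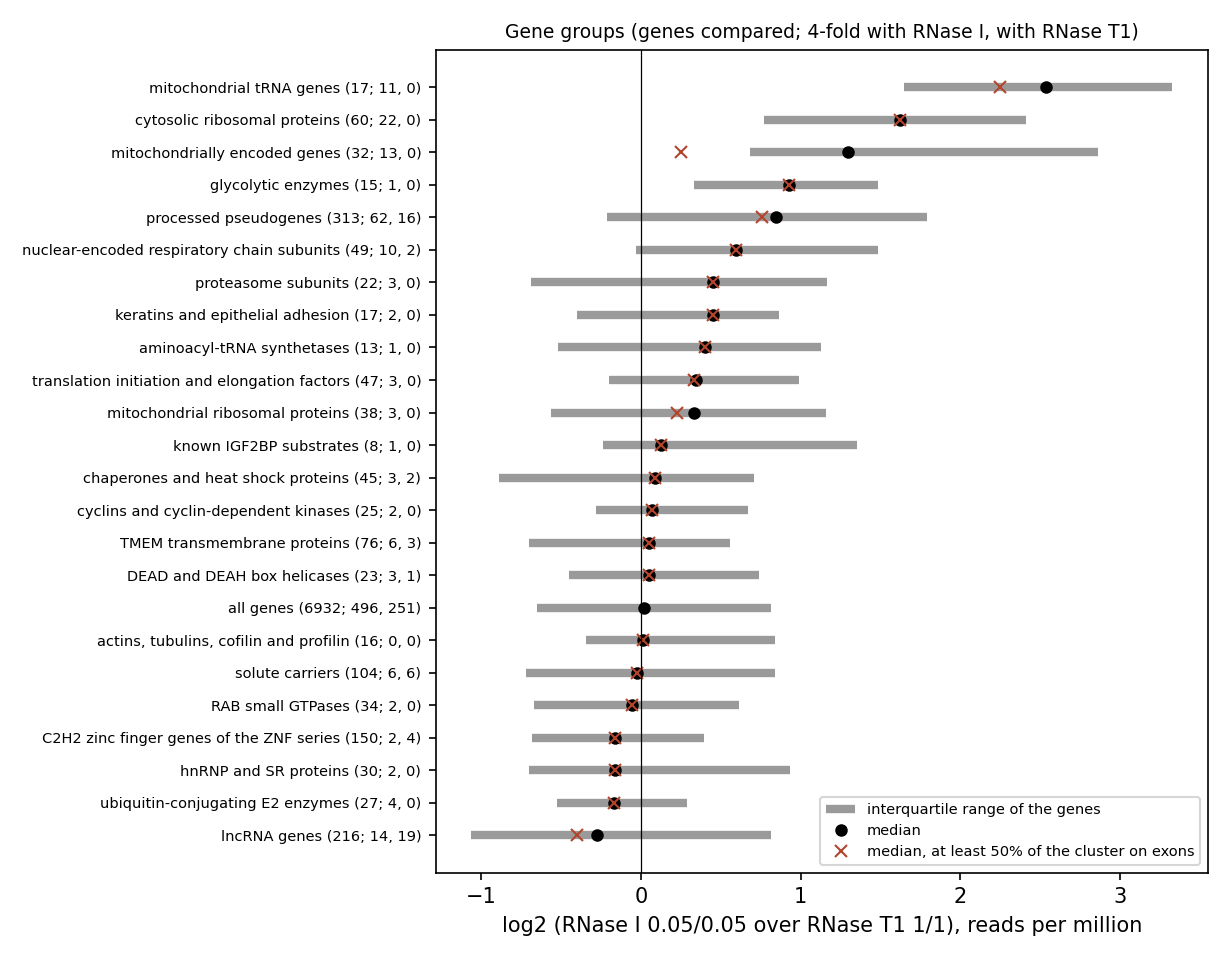
Log2 ratio of RNase I 0.05/0.05 over RNase T1 1/1 (x axis) for gene lists and gene types, with the median (circle), the interquartile range (bar) and the median when at least 50% of the cluster must lie on the gene's exons (cross). The ribosomal protein list keeps its median of 1.62 under that rule, while the mitochondrially encoded genes move from 1.30 to 0.25.

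Among gene types, protein-coding genes (6224 compared) had a median of -0.01, with 390 past 4-fold with RNase I and 210 with RNase T1. The 216 lncRNA genes had a median of -0.27, with 14 (6.48%) and 19 (8.80%), against 7.16% and 3.62% over all genes. The 313 processed pseudogenes had a median of 0.84, with 62 (19.8%) past 4-fold with RNase I and 16 with RNase T1. Of the clusters that lay on a processed pseudogene alone, 65.5% with RNase I and 80.8% with RNase T1 occur letter for letter in an annotated protein-coding transcript, so these clusters cannot be assigned to the pseudogene or the parent mRNA alone. With only clusters of more than 0.5 conversion events per read the median of the processed pseudogenes was -0.14. The 17 mitochondrial tRNA genes compared were all higher with RNase I, 11 of them past 4-fold, with a median of 2.53. A further 5 had clusters with RNase I only. Of the 8 miRNA genes compared 5 were past 4-fold with RNase I, and in the median miRNA gene none of the RNase I reads lay in clusters of that gene alone.

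The median of the mitochondrially encoded genes depended on how long clusters were assigned. On the plus strand of the mitochondrial chromosome the RNase I library had 49 clusters, the longest of 1715 nt, and the RNase T1 library 151, the longest of 333 nt. A long cluster on a neighbouring mRNA touches the short tRNA genes beside it and is counted for each. The 2342 reads counted for MT-TG, the glycine tRNA, are those counted for MT-CO3, and the 1311 of MT-TK and MT-TD are those of MT-CO2. Without any gene assignment, the plus strand held 10891 RPM with RNase I and 9486 with RNase T1, a log2 ratio of 0.20, and the minus strand 887 and 351, a log2 ratio of 1.34. Over both strands the log2 ratio was 0.26, against -0.22 in the crushed-gel libraries. When at least 50% of a cluster had to lie on the exons of the gene, 18 mitochondrially encoded genes remained, with a median of 0.25 in place of 1.30 over 32 genes. Among them were 4 of the 17 tRNA genes, all 4 higher with RNase I, with a median of 2.25. Under this rule MT-TP (98 and 7 reads, 2.78) and MT-TW (402 and 34, 2.53) were past 4-fold with RNase I. The mRNA gene MT-ND3 (23 and 46 reads, -2.03) was past 4-fold with RNase T1, and MT-ATP6 (350 and 680, -1.99) lay just under it. Counted by the 1-nt rule, mitochondrial mRNAs lay on both sides of equality, with MT-CO3 at 2342 and 707 reads (0.70), MT-CO2 at 1311 and 412 (0.64), MT-CYB at 1240 and 614 (-0.02), MT-ND4 at 2468 and 1400 (-0.21) and MT-ND5 at 904 and 671 (-0.60).

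The rule of at least 50% of a cluster on exons took 3 of the named genes higher with RNase I back under 4-fold. It changed others too, such as ENSG00000290018 from -2.86 to -3.91 (26 and 191 reads) and MT-ND5 from -0.60 to -0.77. BZW1P2 had 1211 reads with RNase I and 29 with RNase T1 (4.35), but 1069 of the former lay in 1 cluster of 368 nt that lay almost wholly outside the annotated pseudogene, over RNase T1 clusters that held 698 reads. With at least 50% of the cluster on exons its reads were 142 and 29 (1.26). LINC01123 changed from 3.57 to -0.65 and LINC01106 from 3.27 to -0.99, and the RNase T1 clusters under their RNase I top clusters held 358 and 368 reads. Of all genes past 4-fold, 451 of the 496 higher with RNase I (90.9%) and 245 of the 251 higher with RNase T1 (97.6%) stayed past 4-fold under the stricter rule.

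The 3′UTR was described for the 6204 protein-coding genes compared that have one in their canonical transcript, of which 6.22% were past 4-fold with RNase I and 3.38% with RNase T1. The ratio followed the G share of the 3′UTR. In the quartile of genes with the lowest G share, up to 17.9%, the median log2 ratio was -0.54, with 37 genes past 4-fold with RNase I and 111 with RNase T1. It was -0.31 in the next quartile and 0.13 in the one after. In the highest quartile, above 23.4% G, the median was 0.78, with 223 genes past 4-fold with RNase I and 14 with RNase T1. The GC share gave nearly the same medians, from -0.53 to 0.78, and both shares run together over genes (rho = 0.90).

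The G share and the C share were therefore set against each other. Within the quartile of genes with the lowest C share, the median rose with the quartile of G share from -0.59 (974 genes) over -0.34 and 0.23 to 0.41 (26 genes), and within the highest quartile of C share from 0.29 (58 genes) over 0.32 and 0.45 to 0.87 (1078 genes). The difference by G share was thus present among 3′UTRs of like C share, and the ratio was higher at a higher C share too.

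Among the 3′UTR features, the spacing of G gave the widest range of medians. The authors kept reads of 18 to 45 nt, and the share of a 3′UTR that lies in stretches of that length from one G to the next was computed for each gene. In the quartile with the smallest share, up to 9.38%, the median log2 ratio was 0.87, with 256 genes past 4-fold with RNase I and 17 with RNase T1. In the quartile with the largest share, above 17.2%, it was -0.58, with 35 and 111. For the longest stretch without G the medians ran from 0.80 at up to 27 nt to -0.36 at 42 nt or more. Across the 6204 genes Spearman's rho with the log2 ratio was -0.49 for the G-to-G share, 0.46 for the G share and -0.40 for the longest stretch without G, given as descriptions, since these features are not independent and all genes share the same libraries.

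Short sequence elements went with the ratio as well. ATTTA, the core of AU-rich elements, was counted on the transcript strand: medians ran from 0.67 in the quartile of 3′UTRs with the fewest copies per kb to -0.43 in that with the most (rho = -0.39). For CATT they ran from 0.67 to -0.32 (rho = -0.34), and for CAGT, which holds a G, from 0.17 to 0.12 with no trend (rho = -0.02). ATTTA and CATT were also rarer in 3′UTRs with more G (rho with the G share -0.57 for both), and their own part in the ratio was not tested.

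**Figure D4:**
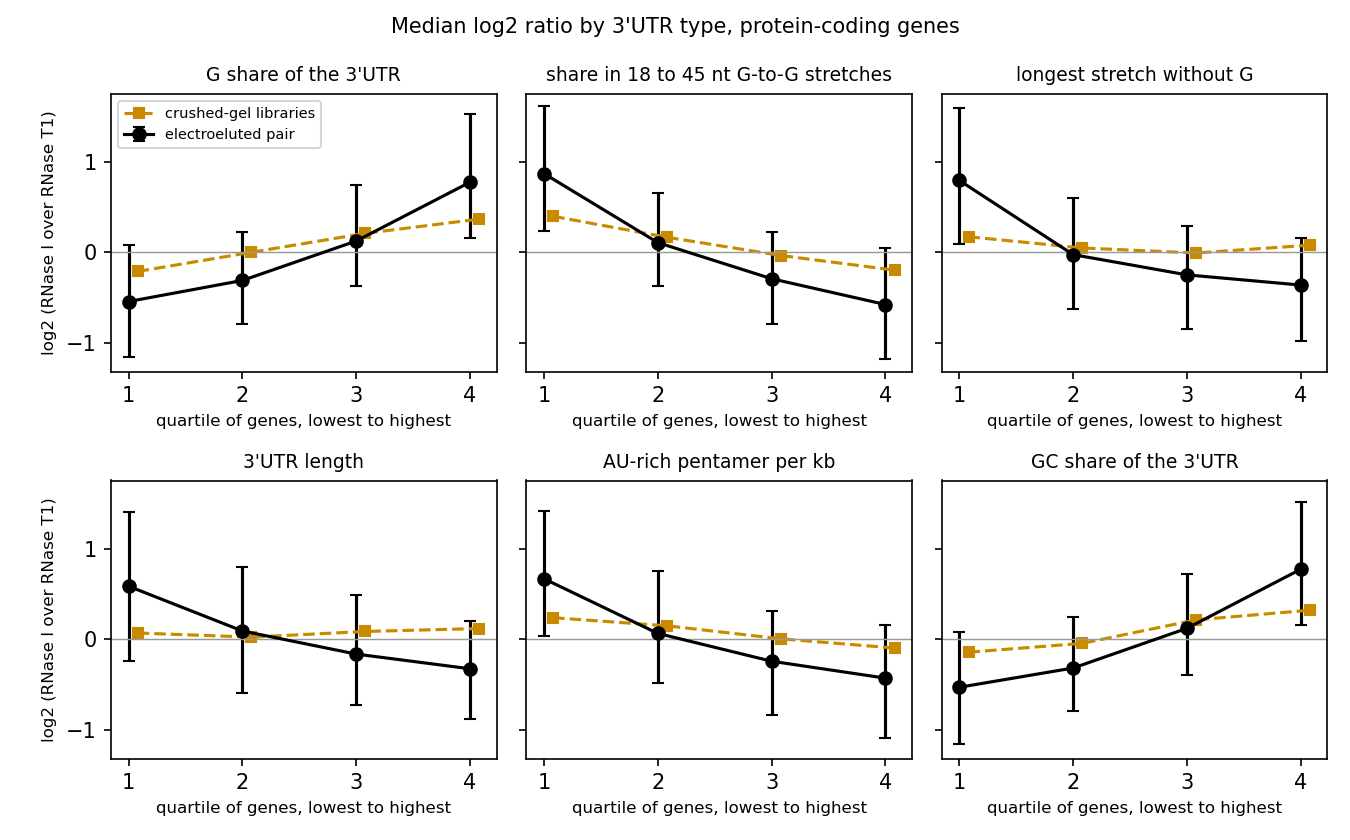
Median log2 ratio of RNase I over RNase T1 (y axis) by quartile of protein-coding genes, from the lowest to the highest value of each 3′UTR feature (x axis; the AU-rich pentamer is ATTTA). Black circles with bars are the median and interquartile range in the electroeluted pair and yellow squares the median in the crushed-gel libraries; for G share the electroeluted medians run from -0.54 to 0.78 and the crushed-gel medians from -0.21 to 0.37, while for length only the electroeluted medians fall.

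The length of the 3′UTR went with the ratio in the opposite direction. The 420 genes with a 3′UTR of up to 300 nt had a median of 0.86, the 1302 of 300 to 1000 nt 0.46, the 2590 of 1000 to 3000 nt -0.05, and the 1892 over 3000 nt -0.31. Length and G share were not correlated over these genes (rho = 0.00), and each went with the ratio within classes of the other. Among 3′UTRs over 3000 nt the median rose with the quartile of G share from -0.88 over -0.50 and -0.09 to 0.42, and among those of up to 300 nt from 0.43 over 1.07 and 1.14 to 1.25. None of the 377 long 3′UTRs in the lowest quartile of G share was past 4-fold with RNase I, and none of the 107 short ones in the highest quartile was past 4-fold with RNase T1.

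**Figure D5:**
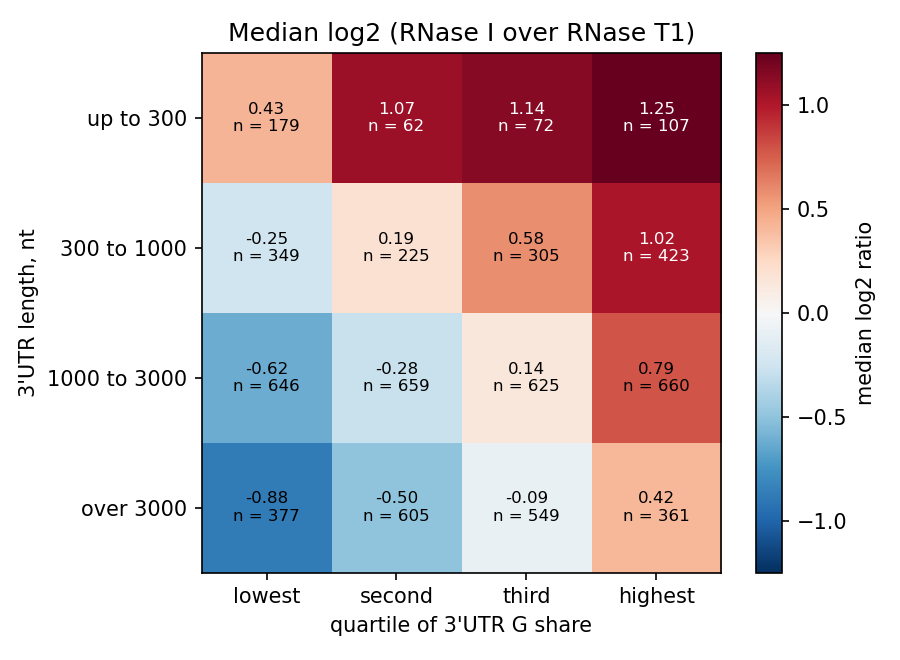
Median log2 ratio of RNase I over RNase T1 for protein-coding genes by 3′UTR length (rows, in nt) and quartile of 3′UTR G share (columns), with the number of genes in each cell. Medians run from -0.88 for long 3′UTRs with the least G to 1.25 for short ones with the most.

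Clusters on 3′UTRs had median lengths of 58 nt with RNase I and 34 nt with RNase T1. The median gene had 8 clusters with RNase I and 5 with RNase T1, at 137 and 63 reads, and its top cluster held 35.6% of its reads with RNase I and 41.2% with RNase T1. The top clusters of the libraries overlapped in 3066 of the 6932 genes (44.2%), in 220 of the 496 genes higher with RNase I and in 81 of the 251 higher with RNase T1. Genes past 4-fold with RNase I had a median of 1 RNase T1 cluster and 9 RNase T1 reads, so their ratios rest on few RNase T1 reads. Those past 4-fold with RNase T1 had a median of 2 RNase I clusters and 15 RNase I reads. Crosslink-induced conversions per read were higher with RNase I in 5570 genes (80.4%), with medians of 0.64 and 0.53.

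By region, 86.3% of the RNase I reads of the protein-coding genes compared lay in clusters that touch a 3′UTR and 12.8% in clusters on coding sequence alone, against 90.7% and 8.23% with RNase T1. Genes past 4-fold with RNase I had more of their reads on coding sequence alone with either enzyme (21.9% with RNase I, 22.4% with RNase T1), and those past 4-fold with RNase T1 fewer (6.33% and 3.53%). In the 1054 genes with at least 10 RPM on average in both regions, the median log2 ratio was -0.06 for the 3′UTR and 0.65 for the coding sequence, and the coding sequence had the higher ratio in 739 (70.1%). Clusters that touch both coding sequence and 3′UTR, in any annotated transcripts of the gene, count as 3′UTR here. They held 17.6% of the RNase I reads and 5.16% of the RNase T1 reads. Such clusters need not cross a stop codon, since the same stretch can be coding or 3′UTR in different transcripts.

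The crushed-gel libraries, which took no part in choosing the shifted genes, were then compared in the same way, as the mean of RNase I 0.1/0.025 and 0.05/0.025 over RNase T1 0.25/0.25. This RNase T1 library held 182448 cluster reads, and 67.5% of the genes past 4-fold with RNase I and 76.1% of those past 4-fold with RNase T1 had no cluster in it, against 48.5% of all genes compared. Over the 3425 genes with clusters in all 3 libraries, 53.1% were higher with RNase I and 46.9% with RNase T1. Of the genes past 4-fold with RNase I in the electroeluted pair 158 could be compared, and 135 of them (85.4%) were again higher with RNase I, with a median log2 ratio of 0.70. With the RNase I 0.1/0.025 library alone the share was 77.5% of 160. Of those past 4-fold with RNase T1 33 could be compared, and 31 (93.9%) were again higher with RNase T1, with a median of -1.51. Of the 158, 13 reached 4-fold with RNase I there, against 108 of all 3425 genes. Of the 33, 10 reached 4-fold with RNase T1 there, against 44 of all 3425. Entry into this comparison needed a cluster in that shallow RNase T1 library. For genes low with RNase I, such a cluster by itself leans the ratio toward RNase T1. The 93.9%, the median of -1.51 and the 10 of 33 are thus in part set by the filter and are no separate check. Across the 3425 genes the log2 ratios of both comparisons gave Pearson's r = 0.45 and Spearman's rho = 0.46, over genes and not over samples.

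Single genes and gene groups varied in how far they followed the electroeluted pair. RPL13 had 87.1 and 167 RPM in the crushed-gel RNase I libraries and 27.4 with RNase T1 (log2 ratio 2.21), the last on few reads at the depth of that library. H3-3A had 22.4 and 38.8 with RNase I and 422 with RNase T1 (-3.79). CLCC1 and PEX13 had 6.22 to 8.95 RPM with RNase I and no RNase T1 0.25/0.25 cluster. Of the 60 ribosomal protein genes 51 could be compared, 42 were higher with RNase I, and their median was 0.64, against 1.44 for the same 51 genes in the electroeluted pair. Processed pseudogenes had a median of -0.12 over 129 genes, against 0.88 for the same genes in the electroeluted pair. With transcribed ones included, those named after a ribosomal protein had 0.46 (22 of 32 higher with RNase I) and the others -0.29 (40 of 109). The ZNF list turned direction, with 37 of 57 genes higher with RNase I and a median of 0.32, against -0.30 for the same genes in the electroeluted pair. The median also changed sign for the chaperones (-0.24 against 0.23), mitochondrial ribosomal proteins (0.19 against -0.10), ubiquitin-conjugating enzymes (0.05 against -0.21), DEAD and DEAH box helicases (0.19 against -0.03) and aminoacyl-tRNA synthetases (-0.01 against 0.34).

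The 3′UTR G share went with the ratio in the crushed-gel libraries too, with medians of -0.21, 0.00, 0.21 and 0.37 from the lowest to the highest quartile, where the same genes had -0.45, -0.24, 0.14 and 0.65 in the electroeluted pair. The 3′UTR length did not: the medians were 0.12, 0.08, 0.05 and 0.10 from the shortest to the longest class, where the same genes had 0.77, 0.40, -0.06 and -0.27 in the electroeluted pair. The crushed-gel libraries differ from the electroeluted pair in dose, gel extraction and depth, and the part of each was not tested.

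As to the series as a whole, the RNase I 0.05/0.05 library held 90999 clusters with 2362467 reads and the RNase T1 1/1 library 59873 with 1157194, so a level of 10 RPM is 23.6 and 11.6 reads. The IgG library, digested with RNase I at 0.1 and 0.025 U/µL, a dose of neither electroeluted library, held 25 clusters with 324 reads. Of the 6932 genes compared 13 had an IgG cluster, with at most 25 reads on any of them. None of the 747 genes past 4-fold did, which at so small a share over all genes is no result about them. Of 10 colorectal epithelial markers, 6 had clusters with RNase I and 7 with RNase T1, while KRT20, VIL1 and CLDN3 had none in either. Of 8 markers of blood, endothelial, stromal and muscle cells, 1 had clusters, ACTA2, with 24 and 16 reads. IGF2BP2 and IGF2BP3 mRNAs had clusters in both libraries and IGF2BP1 in neither.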

How the data were processed

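Values are read counts per PARalyzer cluster as deposited. Per the study's methods and the submitters' processing notes, the authors trimmed reads to 18 to 45 nt with Trimmomatic 0.30, mapped them with Bowtie 0.12.7 allowing up to 3 mismatches, removed duplicates with UMI-tools 1.1.1 and called clusters per library; how reads with several map positions were treated was not given in the sources used here. Deposited cluster coordinates, 1-based, matched GRCh38 sequence for all 244645 clusters.

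Clusters were assigned to GENCODE release 44 exons on the same strand with bedtools 2.31.1 (overlap of at least 1 nt, counted for each gene overlapped). Reads per 1000000 cluster reads (RPM), ratios and exact (Clopper-Pearson) intervals were computed with Python 3.11.15, pandas 2.3.3 and scipy 1.17.1, after a test on simulated data. Reads were deduplicated by molecular identifiers before calling, and intervals cover counting error only. With 1 library per enzyme no test was made.

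Named genes had at least 90% of their reads in clusters of that gene alone and at least 10 reads per library: the 12 highest and 12 lowest ratios at a mean of at least 50 RPM, the 6 with most reads, the extremes of each list and gene type, and the 5 with most reads among genes in 1 library only; other members of the lists are named as examples, chosen after their values were seen. Some genes that met these rules are not reported here. Members and lists were chosen with earlier results of these data known. Quartiles of 3′UTR features used the GENCODE canonical transcript.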

Additional observations from a re-analysis of the deposited data

Results flagged for a closer look

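Named genes past 4-fold in the electroeluted pair were checked for the opposite direction against each crushed-gel RNase I library. NT5C3A was lower with RNase I in the electroeluted pair (log2 ratio -3.06, 36 and 147 reads) and higher in the crushed-gel libraries (0.91; 0.97 and 0.84 with each RNase I library). Its crushed-gel RNase T1 value, 27.4 RPM, rests on few reads, as that library held 182448 cluster reads. HSPB1, a small heat shock protein gene, was higher with RNase I in the electroeluted pair (2.76, 180 and 13 reads) and lower in the crushed-gel libraries (-0.86). RAB11B, a GTPase gene of recycling endosomes, was likewise higher in the electroeluted pair (2.62, 376 and 30 reads) and lower in the crushed-gel libraries (-0.77). These differences were not tested, as each setting has 1 RNase T1 library.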

How the results depend on the processing

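No paired analysis was possible because each enzyme condition had 1 library. Besides the counts and medians given here, the group and 3′UTR medians stayed within the 95% interval of the median over genes, and the counts within 1.5 times, under the alternatives run. Ratios of the named genes stayed within their counting interval in 555 cases, left it in 74, and 3 ratios past 4-fold turned to the other direction. Of those under 4-fold 7 changed sign, among them CDKN1A (-0.31), DCBLD2 (0.50), RPL14 (0.35), DDX21 (0.30) and RAB23 (0.067) by the conversion minimum and MT-ND5 (0.86) with clusters on 3′UTRs. The rules of at least 50% of a cluster on exons and of dropping repeated sequences, and the use of each crushed-gel library alone, were chosen after seeing the data.

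Using only clusters with more than 0.5 conversion events per read, 562 genes were past 4-fold with RNase T1 and 342 with RNase I. The median over genes was then -0.17, with 1.1 for ribosomal proteins, 0.65 for mitochondrially encoded genes, -0.044 for respiratory chain subunits, -0.56 for ZNF genes, 4.05 for the 3 mitochondrial tRNAs left of 17, -0.14 for processed pseudogenes, -0.61 for lncRNAs, -0.68 and 0.45 for the lowest and highest quartile of G share, and 0.34 and -0.38 for the shortest and longest 3′UTRs. MTCO1P22 turned from -2.76 to 0.44. Using only clusters on annotated 3′UTRs these were -0.11 over genes, 0.050 for mitochondrially encoded genes, -0.67 and 0.71 by G share, and 0.67 and -0.36 by length.

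With clusters on exons of 1 gene only, the medians were -0.030 over genes, -0.077 for mitochondrially encoded genes, 1.51 for the 4 mitochondrial tRNAs left and -0.56 for lncRNAs. With assigned reads as the denominator they were -0.037 over genes and -0.37 for the longest 3′UTRs. Without repeated sequences they were -0.022 over genes, 1.59 for the 8 mitochondrial tRNAs left and -0.35 for the longest 3′UTRs. With at least 50% of a cluster on exons the mitochondrially encoded genes had 0.25, LINC01123 -0.65 and LINC01106 -0.99. A minimum of 5 RPM gave 0.59 for processed pseudogenes. A minimum of 50 left 145 genes past 4-fold with RNase I and 42 with RNase T1, with medians of -0.030 over genes, 1.16 for processed pseudogenes and 0.65 for the highest quartile of G share. At 2-fold the counts were 1445 and 1103. With RNase I 0.1/0.025 alone the share of genes in the same direction was 77.5%.

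Repeated sequences made up 2.67% of the RNase I and 6.24% of the RNase T1 clusters. Thinned to the RNase T1 total, the RNase I library gave 503 and 275 genes. Ratios of genes near the minimum rest on few RNase T1 reads, and a gene absent from a library may lie below the minimum of the caller.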
